A study of Mus musculus with 10 samples.

Results

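The cytotoxic granule genes described here are 10 genes that encode inhibitors, proteases, structural proteins and secretion factors of the granule, and they were taken by name from the deposited table (Serpinb9, Serpinb6b, Serpinb1a, Cst7, Ctsw, Ctsc, Srgn, Lamp1, Unc13d and Rab27a). Each name occurred once among the 57825 genes listed. RNA was sequenced from purified CD8+ T cells that had shared a culture with cells of the murine breast tumor line 4T1, in 5 samples without sodium acetate (CD8+4T1) and 5 samples with 5 mM sodium acetate (CD8+4T1+NaAc). According to the methods, the cells came from spleens of female Balb/c mice aged 7 to 8 weeks and were activated on plate-bound anti-CD3 with anti-CD28 and IL-2 for 12 h, given NaAc or none during the next 24 h and then placed with the tumor cells for 48 h, and the labels give day 3. Both groups thus shared the activation and the tumor cells and differed, by their labels, in NaAc alone. All cells were activated in vitro, and neither T cells kept away from 4T1 cells nor resting T cells were part of the comparison. Nothing in the labels says that the 5 samples of a group came from separate mice, so the p-values measure the spread between these samples, which may be technical.

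Cytotoxic T cells kill by releasing lysosome-related granules that hold perforin and granzymes. Granzymes are made as inactive precursors, are activated by cathepsin C, are packed on the proteoglycan serglycin, and leave the cell when Rab27a and Munc13-4 bring the granule to the plasma membrane and prepare it for fusion. Cytosolic serpins protect the killer cell from its own escaped granzymes, and cystatin F restrains granule cathepsins.

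The libraries held between 15010132 and 17269435 fragments in genes, recovered from FPKM (fragments scaled by gene length and by library size) and gene length. Replicate 1 of CD8+4T1+NaAc stood apart with 20233 genes above 0, against 24681 to 25088 in the other replicates, and replicate 1 of CD8+4T1 had 22291 against 23786 to 24054, so calls of the granule genes and of the markers named here that change without either library are also given without it. The summed level of 12 T cell markers was 954 to 1065 FPKM in CD8+4T1 and 887 to 987 FPKM in CD8+4T1+NaAc. All 12 were tested, with 1 higher and 6 lower (17.6% and 19.0% of all genes tested), while Thy1 and Cd8b1 did not pass (log2 fold change -0.10 and 0.17). Leaving out replicate 1 of CD8+4T1+NaAc, Cd8b1 was higher (0.27, limma adjusted p = 0.00312), as it was at an equal total (0.34, limma adjusted p = 0.0143), with scaling to the T cell markers (0.33, limma adjusted p = 0.00826) and with voom (0.26, limma adjusted p = 0.0299). Leaving out replicate 1 of both groups, Thy1 was lower (-0.15, limma adjusted p = 0.0345). The sum of 12 4T1 and epithelial markers (such as Lcn2) was 28.6 to 38.9 FPKM without and 82.0 to 194.3 FPKM with NaAc. Of the 8 members tested, 5 were higher and 0 lower (17.6% and 19.0% of all genes tested). Spint2 did not pass (log2 fold change -0.11, limma adjusted p = 0.141, or -0.15 and 0.0312 without replicate 2 of CD8+4T1+NaAc). At 20.1 to 21.0 FPKM without and 17.6 to 21.4 FPKM with NaAc, Spint2 made up most of the sum without NaAc. The sum thus rose less than Lcn2, which went from a mean of 3.987 to 40.25 FPKM. The sum of 15 myeloid markers was 20.8 to 27.1 FPKM without and 35.9 to 43.4 FPKM with NaAc. Of 7 tested, 5 were higher, among them Cd74, and 0 lower (17.6% and 19.0% of all genes tested). H2-Ab1 did not pass (log2 fold change -0.11, limma adjusted p = 0.583), and S100a9 was listed at 0 in all samples. Of 6 NK cell markers 1 was high enough to be tested and was not called (Klre1, log2 fold change -0.04, limma adjusted p = 0.951), Klrb1c was at a mean of 0.0680 FPKM and Klra4 was listed at 0 in all samples. Of 6 B cell markers 3 were tested and 0 called at an adjusted p under 0.05 (limma p before adjustment at least 0.0573), beside 36.5% called of all genes tested. Leaving out replicate 1 of CD8+4T1+NaAc, Cd79b (0.50, limma adjusted p = 0.0127) and Ighm (0.41, limma adjusted p = 0.00563) were higher, as they were at an equal total (0.54 and 0.45, limma adjusted p = 0.0187 and 0.0260) and with scaling to the T cell markers (0.52 and 0.44, limma adjusted p = 0.0158 and 0.0208). In all, 3 of 10 settings with all samples called Cd79b (limma adjusted p down to 0.0119) and 3 of 11 called Ighm. Of 6 mast cell and basophil markers 1 was tested, Kit, which was higher (log2 fold change 1.05, limma adjusted p = 0.000139), while Cpa3, below the filter, was at a mean of 0.438 FPKM without and 0.479 FPKM with NaAc. The part of other cells' RNA in the results for the granule genes was not tested.

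Of the 10 granule genes, 9 had a mean of at least 0.5 FPKM and were tested with limma on log2(FPKM + 0.1) over 15710 genes. Between CD8+4T1 and CD8+4T1+NaAc, 6 of the 9 had a Benjamini-Hochberg adjusted p under 0.05 (66.7%, against 36.5% of all genes tested). Srgn, Rab27a, Cst7 and Ctsc were lower and Lamp1 and Serpinb6b higher with NaAc. In all, 17.6% of the genes tested were higher and 19.0% lower. The median log2 fold change of the 9 genes was -0.06, against -0.02 for all genes tested. The groups did not overlap for 2 of the 9 genes, Srgn and Cst7, against 26.4% of all genes tested. Fewer cells of a type and less RNA per cell cannot be told apart in such bulk samples. Without replicate 1 of both groups the count of called granule genes was 6, with 2 higher and 4 lower, while 6979 of 15645 genes were called in all, against 5742 of 15710 with all samples.

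**Figure D1:**
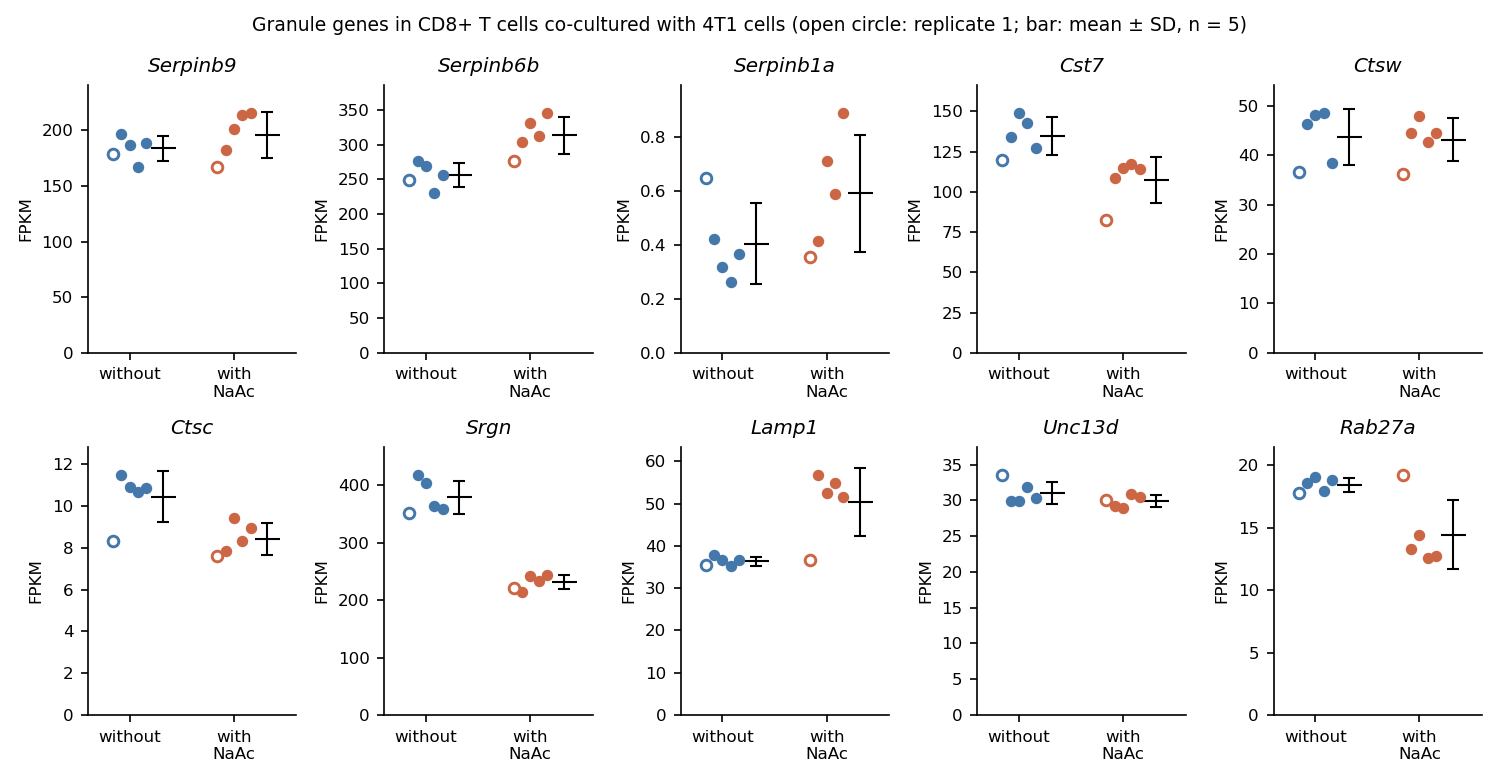
FPKM of each granule gene in the 5 samples without and the 5 samples with NaAc, with replicate 1 as an open circle and the mean ± SD beside the points. Srgn separates the groups fully (351.5 to 417.3 FPKM without and 214.9 to 243.2 with NaAc), while for Lamp1 and Rab27a the sample of CD8+4T1+NaAc among the CD8+4T1 values, or above them, is replicate 1.

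The genes covered a wide range of levels per kilobase, and their order by FPKM was the same in all 5 samples of a group. Without NaAc it was Srgn, Serpinb6b, Serpinb9, Cst7, Ctsw, Lamp1, Unc13d, Rab27a, Ctsc and Serpinb1a from the highest to the lowest. With NaAc, Serpinb6b stood above Srgn and Lamp1 above Ctsw in all 5 samples, and the other places did not change. Neighbours in this order were close in some places: without NaAc the ranges of Ctsw (36.7 to 48.5 FPKM) and Lamp1 (35.3 to 37.8 FPKM) overlapped. In replicate 1 with NaAc, Lamp1 (36.6 FPKM) was barely above Ctsw (36.3 FPKM). The ratio of Srgn to Serpinb6b within a sample was 1.403 to 1.574 without and 0.704 to 0.804 with NaAc. This order and ratio do not depend on the scaling of the samples and were noticed after the values were seen, so they are given without a test.

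Among the structural genes, Srgn (ENSMUSG00000020077) encodes serglycin, the proteoglycan on which granzymes and perforin are stored. It is listed on chromosome 10 from 62329612 to 62363230. Its levels were 352, 417, 404, 364 and 359 FPKM in replicates 1 to 5 of CD8+4T1 and 222, 215, 241, 234 and 243 FPKM in those of CD8+4T1+NaAc. All samples with NaAc were below all samples without it, and replicate 1 of neither group stood out. The mean fell from 379 ± 29.3 to 231 ± 12.3 FPKM (SD, n = 5). On the log2 scale the change was -0.71 ± 0.06 (SE; limma adjusted p = 3.26e-05; exact permutation test, two-sided, p = 0.00794, the smallest that 5 against 5 samples allow). Srgn took 8340 to 15986 fragments in each library. The call was kept under all 21 alternatives, with a log2 fold change between -0.73 and -0.53 where all 10 samples were used and between -0.74 and -0.68 with any 1 sample left out. Ranked by mean level among the genes tested, Srgn was number 114 without and number 150 with NaAc.

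Lamp1 (ENSMUSG00000031447) encodes a glycoprotein of the lysosomal and granule membrane, which appears on the cell surface as CD107a when granules are released. It is listed on chromosome 8 from 13209161 to 13225338. Its levels were 35.5, 37.8, 36.5, 35.3 and 36.6 FPKM in CD8+4T1 and 36.6, 56.6, 52.5, 54.9 and 51.6 FPKM in CD8+4T1+NaAc. Replicates 2 to 5 with NaAc were above all samples without it, and replicate 1 was within their range. The mean rose from 36.3 ± 1.02 to 50.4 ± 7.99 FPKM (SD, n = 5). On the log2 scale the change was 0.46 ± 0.10 (SE; limma adjusted p = 0.00616). Without replicate 1 of CD8+4T1+NaAc it was 0.57 (limma adjusted p = 1.02e-05). The other single samples left out gave 0.41 to 0.47, and the scalings and other settings with all samples 0.44 to 0.63, all called. Relative to Cd8a, a subunit of the co-receptor that defines these cells, Lamp1 was at 0.447 to 0.491 without and at 0.503 to 0.785 with NaAc. The groups did not overlap in this ratio (log2 difference 0.50, exact permutation test, two-sided, p = 0.00794, adjusted p = 0.0159 over 4 ratios). Cd8a itself had a log2 fold change of -0.04 (limma adjusted p = 0.559), so the ratio largely restates the change of Lamp1. In replicates 1 to 5 with NaAc the 4T1 marker sum was 92.2, 194.3, 120.4, 145.8 and 82.0 FPKM, so its highest value was in the sample with the highest Lamp1 and its lowest in replicate 5, not in replicate 1 where Lamp1 was lowest. The part of 4T1 RNA in the rise of Lamp1 was not tested.

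The sequences just before the annotated starts are shown for Srgn, Lamp1 and Serpinb6b, the 3 granule genes whose call was kept under every alternative run. They are 250 bases up to the base before the start, in RefSeq's GRCm38.p6, which is the genome of C57BL/6J and not of the Balb/c mice used here. Capitals mark CACGTG (the E-box form bound by TFEB and related regulators of lysosomal genes), TGTGGT (RUNX), TGANTCA (AP-1) and GGTGTGA (T-box), each searched on both strands.
Lamp1, chr8:13158911-13159160 (+ strand): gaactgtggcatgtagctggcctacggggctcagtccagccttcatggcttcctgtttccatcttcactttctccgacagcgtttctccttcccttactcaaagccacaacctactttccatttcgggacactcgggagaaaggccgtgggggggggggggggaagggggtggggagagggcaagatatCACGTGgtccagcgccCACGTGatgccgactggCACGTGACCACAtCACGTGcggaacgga
Srgn, upstream start, chr10:62527446-62527695 (- strand): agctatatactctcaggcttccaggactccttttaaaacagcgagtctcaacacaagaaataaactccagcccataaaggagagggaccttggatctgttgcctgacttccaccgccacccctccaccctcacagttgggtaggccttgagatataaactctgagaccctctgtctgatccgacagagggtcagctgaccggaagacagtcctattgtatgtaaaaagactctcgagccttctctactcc
Srgn, downstream start, chr10:62507758-62508007 (- strand): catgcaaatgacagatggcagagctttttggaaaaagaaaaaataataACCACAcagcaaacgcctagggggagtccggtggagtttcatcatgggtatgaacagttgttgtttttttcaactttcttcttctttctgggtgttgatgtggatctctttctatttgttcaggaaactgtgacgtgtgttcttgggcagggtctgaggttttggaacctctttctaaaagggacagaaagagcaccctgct
Serpinb6b, chr13:32965011-32965260 (+ strand): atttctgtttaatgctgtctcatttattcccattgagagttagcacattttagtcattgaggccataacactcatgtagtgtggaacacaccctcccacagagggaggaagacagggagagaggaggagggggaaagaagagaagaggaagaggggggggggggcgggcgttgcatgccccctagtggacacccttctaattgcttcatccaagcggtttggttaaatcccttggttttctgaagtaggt
The Lamp1 window holds 4 copies of CACGTG, which begin 61, 45, 28 and 15 bases before the start, and 1 TGTGGT that begins 22 bases before it, between the third and the fourth copy. Of 32851 promoter windows of this length, 6.02% hold at least 1 CACGTG and 7 windows (0.0213%) hold 4 or more. The downstream Srgn window holds 1 TGTGGT, as do 4614 of all windows, and neither the upstream Srgn window nor that of Serpinb6b holds any of the 4 motifs. TGANTCA is in 6.75% and GGTGTGA in 3.33% of all windows. Promoters were matched for 7 of the 10 genes, at 9 starts, and not for Serpinb1a, Ctsw and Unc13d. The only other CACGTG among them begins 246 bases before the second Rab27a start. A match describes these letters and is not evidence of binding, and no match says only that the letters are not in this window.

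Among the inhibitors, Serpinb6b (ENSMUSG00000042842) encodes a cytosolic serpin described as an inhibitor of granzyme A. It is listed on chromosome 13 from 33149192 to 33163050. Its levels were 249.5, 277, 269, 231 and 256 FPKM without and 276, 304, 331, 312 and 345 FPKM with NaAc. The groups touched where replicate 1 with NaAc lay just below replicate 2 without it. The mean rose from 257 ± 17.8 to 314 ± 26.5 FPKM (SD, n = 5). On the log2 scale the change was 0.29 ± 0.07 (SE; limma adjusted p = 0.00959). It was called in all alternatives, between 0.27 and 0.47 with all samples and between 0.25 and 0.33 with any sample left out. Gzma, which encodes granzyme A, rose more (log2 fold change 1.42, limma adjusted p = 3.79e-05), so that the ratio of Serpinb6b to Gzma fell from between 39.1 and 64.8 to between 19.97 and 26.5 (log2 difference -1.13, exact permutation test, two-sided, p = 0.00794, adjusted p = 0.0159 over 4 ratios). This difference follows from the fold changes of the 2 genes and is not a separate result. Of the 50-base stretches of the Serpinb6b transcripts, 2.92% also occur in transcripts of other genes, most often Serpinb6c.

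Serpinb9 (ENSMUSG00000045827), listed near it on chromosome 13 from 33187233 to 33201940, encodes the granzyme B inhibitor of mouse cytotoxic cells. Its levels were 179, 197, 187, 167 and 189 FPKM without and 167, 182, 201, 213 and 215 FPKM with NaAc. The groups overlapped, with the lowest sample of both at 167 FPKM. The log2 fold change was 0.09 (standard error 0.08, limma adjusted p = 0.420). With any 1 sample left out it was 0.05 to 0.14 (limma adjusted p at least 0.0972), the highest without replicate 1 of CD8+4T1+NaAc. It became 0.27 (limma adjusted p = 0.0208) when all samples were set to an equal FPKM total and 0.25 (limma adjusted p = 0.0150) when samples were scaled to the T cell markers. These rescalings moved the median of all genes to 0.16 and 0.14. The ratio of Serpinb9 to Gzmb, the transcript of granzyme B, was 0.0719 to 0.0910 without and 0.0703 to 0.0971 with NaAc, a log2 difference of 0.05 (exact permutation test, two-sided, p = 0.587). This difference was 0.005 to 0.125 with any 1 sample left out. Gzmb itself had a log2 fold change of 0.03 (limma adjusted p = 0.755), which became 0.21 (limma adjusted p = 0.0301) and 0.20 (limma adjusted p = 0.0346) under the same rescalings. Serpinb9b, a paralog listed near it from 33211399 to 33225867, rose from 18.9 ± 0.934 to 46.9 ± 5.57 FPKM (SD, n = 5; a difference of 148.1%, limma adjusted p = 9.05e-06). The ratio of Serpinb9b to Serpinb9 was 0.0926 to 0.111 without and 0.196 to 0.269 with NaAc, and 0.378% of the 50-base stretches of Serpinb9 occur in other transcripts.

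Serpinb1a (ENSMUSG00000044734), on chromosome 13 from 33026075 to 33035168, encodes an inhibitor of neutrophil-type serine proteases. Its levels were 0.264 to 0.650 FPKM without and 0.356 to 0.889 FPKM with NaAc, from 25, 17, 12, 10 and 14 fragments and from 14, 18, 27, 23 and 34 fragments in replicates 1 to 5. With a mean of 0.498 FPKM it missed the filter. The groups overlapped (difference in mean log2 level 0.44, exact permutation test, two-sided, p = 0.151), and no difference was detected. Fitted without a filter, its limma adjusted p was 0.368.

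Cst7 (ENSMUSG00000068129), on chromosome 2 from 150412335 to 150420864, encodes cystatin F, the inhibitor of granule cathepsins. Its levels were 120.1, 134, 149, 143 and 128 FPKM without and 82.3, 109, 115, 117 and 114 FPKM with NaAc. All samples with NaAc were below all samples without it, and replicate 1 with NaAc lay far below its group. The mean fell from 135 ± 11.6 to 108 ± 14.4 FPKM (SD, n = 5). On the log2 scale the change was -0.33 ± 0.10 (SE; limma adjusted p = 0.0247). Leaving out that sample gave -0.24 (limma adjusted p = 0.0114). The call was lost without replicate 3 (limma adjusted p = 0.0615) or replicate 4 (0.0570) of CD8+4T1, and with samples set to an equal total (log2 fold change -0.16, limma adjusted p = 0.199) or to the T cell markers (-0.17, limma adjusted p = 0.115).

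Of the proteases, Ctsc (ENSMUSG00000030560), on chromosome 7 from 87927293 to 87960096, encodes cathepsin C, which removes the activation dipeptide from granzyme precursors. Its levels were 8.35, 11.5, 10.9, 10.7 and 10.9 FPKM without and 7.61, 7.86, 9.45, 8.33 and 8.94 FPKM with NaAc. Replicates 2 to 5 without NaAc were above all samples with it, and replicate 1 was within their range. The mean fell from 10.5 ± 1.22 to 8.44 ± 0.759 FPKM (SD, n = 5). On the log2 scale the change was -0.30 ± 0.09 (SE; limma adjusted p = 0.0260). Without replicate 1 of CD8+4T1 it was -0.38 (limma adjusted p = 0.00265). Of the 10 fits with 1 sample left out, 4 kept the call, and it was lost without replicate 2, 3, 4 or 5 of CD8+4T1 and without replicate 2 or 4 of CD8+4T1+NaAc (limma adjusted p between 0.0531 and 0.0648). It was also lost without the filter (0.0519), on fragments with voom (0.0563), with the same total (log2 fold change -0.13, limma adjusted p = 0.256) and with scaling to the T cell markers (-0.14, limma adjusted p = 0.176). The ratio of Cst7 to Ctsc, the inhibitor to its target, was 11.7 to 14.4 without and 10.8 to 14.1 with NaAc (log2 difference -0.03, exact permutation test, two-sided, p = 0.730).

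Ctsw (ENSMUSG00000024910), on chromosome 19 from 5515071 to 5518535, encodes cathepsin W, a cysteine protease found mainly in CD8+ T cells and NK cells. Its levels were 36.7, 46.4, 48.1, 48.5 and 38.5 FPKM without and 36.3, 44.5, 47.8, 42.7 and 44.5 FPKM with NaAc. The groups overlapped over almost their whole range, and replicate 1 was the lowest sample of both. The log2 fold change was -0.01 (standard error 0.10, limma adjusted p = 0.937), and it was not called under any alternative run.

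Of the secretion genes, Rab27a (ENSMUSG00000032202), on chromosome 9 from 72952136 to 73004911, encodes the small GTPase that docks granules at the plasma membrane. Its levels were 17.8, 18.6, 19.1, 17.9 and 18.8 FPKM without and 19.2, 13.3, 14.4, 12.6 and 12.7 FPKM with NaAc. Replicates 2 to 5 with NaAc were below all samples without it, and replicate 1 was the highest of all 10 samples. The mean fell from 18.4 ± 0.556 to 14.4 ± 2.74 FPKM (SD, n = 5). On the log2 scale the change was -0.37 ± 0.10 (SE; limma adjusted p = 0.0174). Leaving out that sample gave -0.47 (limma adjusted p = 5.63e-05). With the same total it was -0.19 (limma adjusted p = 0.192) and with scaling to the T cell markers -0.20 (limma adjusted p = 0.225).

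Unc13d (ENSMUSG00000057948), on chromosome 11 from 115952921 to 115968787, encodes Munc13-4, which prepares docked granules for fusion. Its levels were 33.5, 29.9, 30.0, 31.8 and 30.3 FPKM without and 30.1, 29.2, 28.9, 30.9 and 30.4 FPKM with NaAc. The samples of both groups lay close together, with a coefficient of variation of 4.998% without and 2.79% with NaAc. The log2 fold change was -0.06 (standard error 0.05, limma adjusted p = 0.370).

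**Figure D2:**
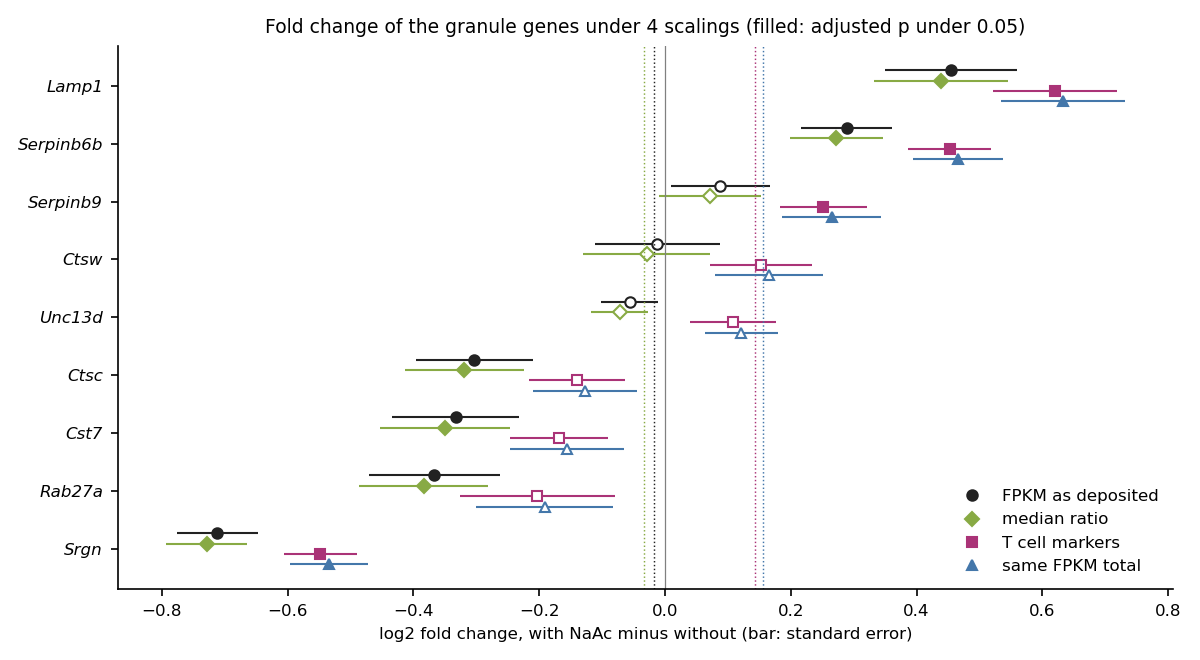
Log2 fold change (with minus without NaAc) and standard error of the 9 granule genes tested, with the FPKM as deposited and under 3 rescalings, where dotted lines mark the median of all genes and filled symbols an adjusted p under 0.05. Lamp1, Serpinb6b and Srgn are filled under all 4, while Cst7, Ctsc and Rab27a are open and Serpinb9 is filled under the scalings to the same total and to T cell markers.

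How the samples were scaled mattered for the smaller differences. The FPKM of CD8+4T1+NaAc samples summed to 282995 to 295928 and those of CD8+4T1 samples to 310965 to 335151. The library size behind the FPKM had a median of 16502619 fragments in CD8+4T1, with a median of 16047162 fragments in genes. In CD8+4T1+NaAc these medians were 16915446 and 15361987, so a smaller part of the library size was in genes. The part of this in the lower calls was not tested. When all samples were set to an equal FPKM total, 4 of the 10 granule genes were called, Lamp1, Serpinb6b and Serpinb9 higher (31.2% of all genes tested) and Srgn lower (8.8% of all genes tested), and over all genes the share of calls that were higher went from 48.1% to 78.0% (77.1% with scaling to the T cell markers and 65.0% with voom). Under that scaling the log2 fold changes were 0.63 for Lamp1, 0.47 for Serpinb6b, 0.27 for Serpinb9 and -0.53 for Srgn. The median of all genes was 0.16 there and was not subtracted from these values. Median-ratio scaling, in which the median of all genes was -0.03, gave the same 2 higher and 4 lower granule genes as the FPKM as deposited.

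**Figure D3:**
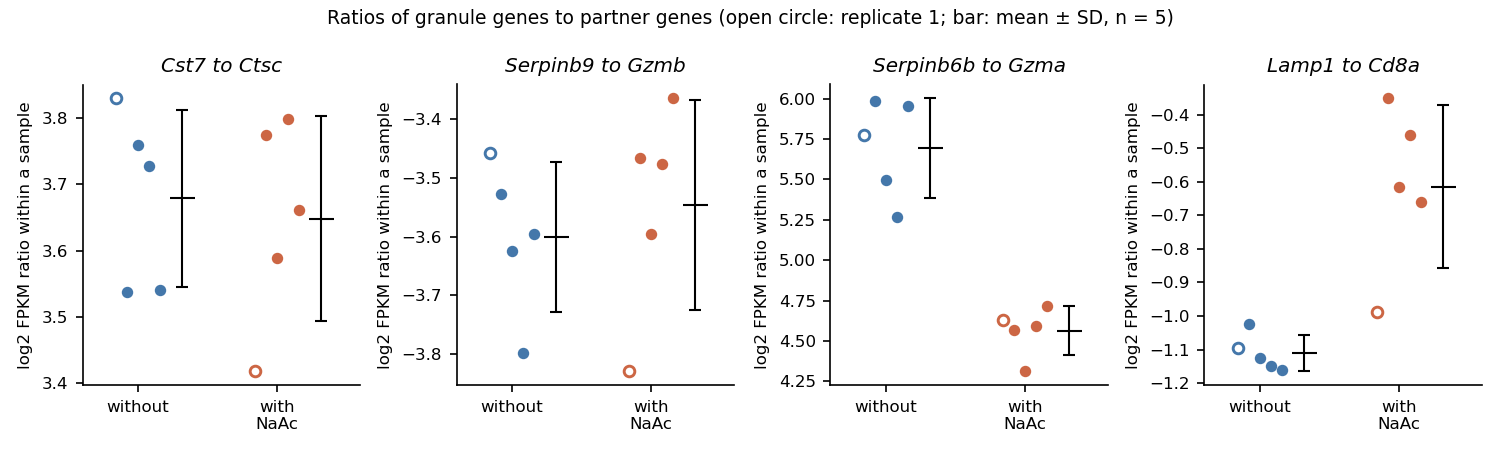
Log2 ratio of the FPKM of a granule gene to that of a partner gene within each sample, with replicate 1 as an open circle and the mean ± SD beside the points. The groups are apart for Serpinb6b to Gzma (means 5.70 and 4.56) and for Lamp1 to Cd8a (-1.11 and -0.62), and overlap for Cst7 to Ctsc and Serpinb9 to Gzmb.

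The spread between samples also differed from gene to gene. In CD8+4T1 the coefficient of variation was 2.81% for Lamp1 and 3.02% for Rab27a, and in CD8+4T1+NaAc it was 15.9% and 19.0%. Without replicate 1 of CD8+4T1+NaAc it was 4.24% for Lamp1, 6.14% for Rab27a and, for Cst7, 3.06% in place of 13.4%. Over the listed positions, Ctsw is overlapped on the other strand by Fibp (mean 4.74 FPKM), Lamp1 by Grtp1 (0.772 FPKM) and Srgn by a long noncoding RNA (1.17 FPKM). Rab27a is overlapped on its own strand by the pseudogene Gm27186 (0.0783 FPKM), the main partner of the 3.59% of its 50-base stretches that occur in other transcripts. Whether the counting used strand is not given in the sources used here, and these partners were low in FPKM beside the granule genes. Fibp is longer than Ctsw (4133 against 1887 bases), so its fragments are less low beside those of Ctsw than its FPKM. How many fragments fall in the overlap was not tested.

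For context, a list of 80 other genes of the granule and lysosome was examined, of which 79 were found by name and 60 tested. Of these, 18 were higher and 8 lower with NaAc (43.3% called, against 36.5% of all genes tested), with a median log2 fold change of 0.08 against -0.02. With the same total 32 were higher and 5 lower, beside 31.2% and 8.8% of all genes tested. With scaling to the T cell markers 29 were higher and 2 lower, beside 4442 and 1317 of 15752 genes. Leaving out replicate 1 of both groups gave 24 and 11, beside 3429 and 3550 of 15645 genes. The calls over all genes thus moved with the setting too.

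Among serpins 6 of 18 were tested, of which 4 were higher and 0 lower (17.6% and 19.0% of all genes tested). Besides Serpinb9b these included Serpinb2 (log2 fold change 0.90, limma adjusted p = 0.00617), known as plasminogen activator inhibitor 2, and Serpinb1b (0.73, limma adjusted p = 0.00616). Among cystatins and stefins, which inhibit cysteine cathepsins, 3 of 7 were tested. Cstb, which encodes cystatin B, was lower (log2 fold change -0.42, limma adjusted p = 0.00178) and Stfa3, of the stefin A family, was higher (3.80, limma adjusted p = 0.00145). Stfa3 had 2, 0, 10, 1 and 0 fragments without and 29, 43, 27, 22 and 17 fragments with NaAc, and its log2 fold change was 1.87 with a pseudocount of 1 and 5.32 with one of 0.01.

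Among cathepsins and legumain, 12 of 13 were tested, of which 5 were higher and 0 lower (17.6% and 19.0% of all genes tested). The 41.7% called in either direction are near the 36.5% of all genes tested. Ctsl, which encodes the lysosomal cysteine protease cathepsin L, had 8.51, 8.58, 8.50, 10.1 and 10.2 FPKM without and 26.03, 46.9, 32.6, 36.8 and 24.6 FPKM with NaAc (log2 fold change 1.82, limma adjusted p = 3.04e-05). Lgmn, the asparaginyl endopeptidase legumain, had a log2 fold change of 1.67 (limma adjusted p = 1.66e-05) and Ctsd, the aspartyl protease cathepsin D, one of 0.51 (limma adjusted p = 0.000815). Within CD8+4T1+NaAc, Ctsl was highest in replicate 2 and lowest in replicate 5, where the 4T1 marker sum was also highest (194.3 FPKM) and lowest (82.0 FPKM). The part of 4T1 or myeloid RNA in these values was not tested.

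Of 10 genes of the lysosomal and granule membrane, M6pr, a mannose 6-phosphate receptor that sorts lysosomal enzymes, was lower (log2 fold change -0.30, limma adjusted p = 0.000840; -0.13 and 0.0601 with scaling to the T cell markers), Cd164, a sialomucin of endosomes and lysosomes, was higher (0.15, limma adjusted p = 0.0429, kept in 3 of 10 fits with 1 sample left out and in 7 of 11 settings with all samples, where the adjusted p was up to 0.0721) and 8 did not pass, beside 36.5% called of all genes tested. Of 29 biogenesis and secretion genes tested, 7 were higher and 6 lower (44.8% called, against 36.5% of all genes tested). Lyst, the regulator of lysosome size that is lost in Chediak-Higashi syndrome (log2 fold change 0.49, limma adjusted p = 0.000746), and Ap3b1, a subunit of the adaptor that sorts proteins to granules (0.34, limma adjusted p = 0.00320), were higher. The membrane fusion proteins Vamp4 (-0.51, limma adjusted p = 0.000542), Vti1b (-0.40, limma adjusted p = 0.00147) and Vamp8 (-0.37, limma adjusted p = 0.0228, kept in 5 of 10 fits with 1 sample left out) were lower. Scaling to the T cell markers ended the call of Vti1b (-0.23, limma adjusted p = 0.0519) and of Vamp8 (-0.21, limma adjusted p = 0.151), and Vamp8 was also lost at an equal total (-0.20, limma adjusted p = 0.167) and with the replicate block (limma adjusted p = 0.0724). It was lost without replicate 4 or 5 of CD8+4T1 and without replicate 2, 3 or 4 of CD8+4T1+NaAc (limma adjusted p between 0.0506 and 0.0571). Of 9 granzyme and perforin genes tested, 4 were higher and 1 lower (55.6% called, against 36.5% of all genes tested), and Prf1, the transcript of perforin, had a log2 fold change of 0.14 (limma adjusted p = 0.130). It was called at an equal total (0.32, limma adjusted p = 0.00406), with scaling to the T cell markers (0.31, limma adjusted p = 0.00367), with voom (0.24, limma adjusted p = 0.0103) and with the replicate block (0.14, limma adjusted p = 0.0473).

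**Figure D4:**
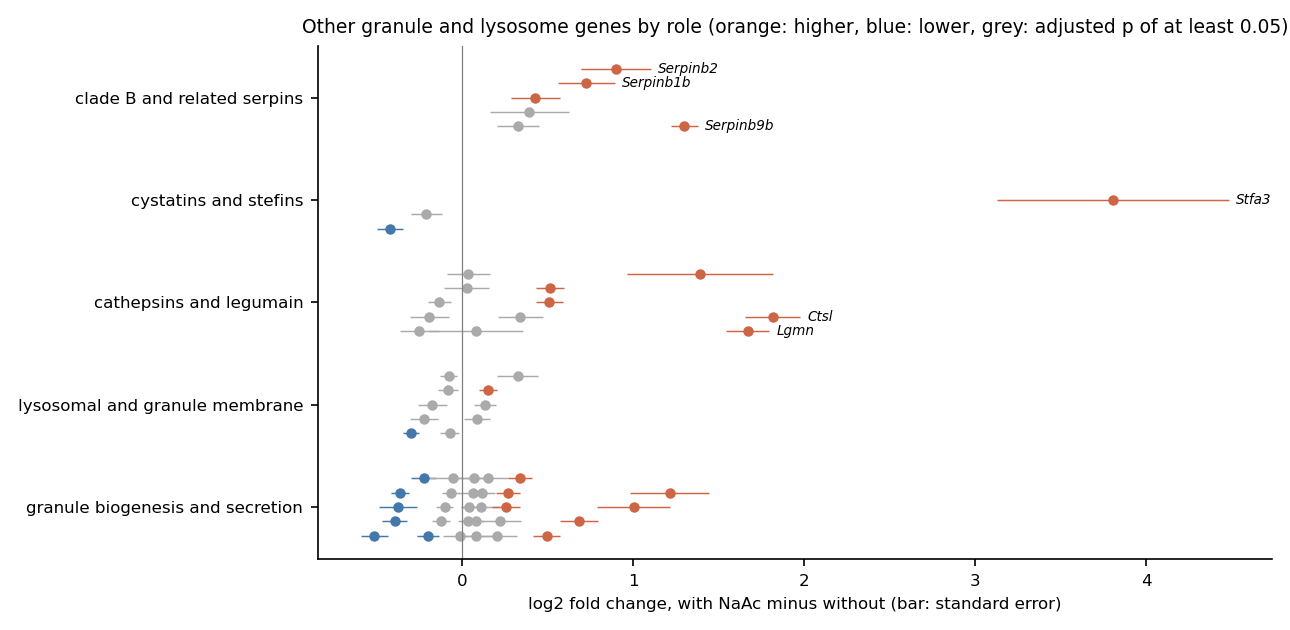
Log2 fold change (with minus without NaAc) and standard error of the 60 other granule and lysosome genes tested, grouped by role, with genes of an adjusted p under 0.05 in orange (higher, 18 genes) or blue (lower, 8 genes). The cathepsins have 5 orange and no blue points, and the secretion genes have 7 orange and 6 blue points.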

How the data were processed

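The deposited table held FPKM per gene and sample, which the authors computed from paired-end reads of NEBNext Ultra libraries on an Illumina NovaSeq sequencer. The submitters' processing notes name fastp, HISAT2 2.0.5, StringTie 1.3.3b and featureCounts 1.5.0-p3. The genome build and annotation are not given in the sources used here, and chromosome positions are as listed in the table. They were not those of GRCm38 for any of the 10 genes. The gene length column deposited by the authors was used to recover fragments: FPKM times length was a whole multiple of 1 step for 100% of values (tolerance 0.1 step).

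The 15710 of 57825 genes averaging 0.5 FPKM or more entered a limma fit (version 3.58.1, R 4.3.3) of log2(FPKM + 0.1), with trend and robust moderation and no block, CD8+4T1+NaAc minus CD8+4T1. Fold changes on this scale understate changes of low genes. Benjamini-Hochberg adjustment ran over all genes tested (threshold 0.05). limma was used in place of a count test because the values are FPKM. Its code was tested on simulated data. Single genes and within-sample ratios were also compared by exact two-sided permutation tests. How the T cells were separated from 4T1 cells before RNA extraction is not given in the sources used here.

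The genes, gene lists, marker lists and tests were chosen with earlier results of these data known. Named genes were the 10 granule genes, the partners of the ratios and Prf1, in each role of the other granule genes up to 3 with the largest rise and 3 with the largest fall among those called and averaging 1 FPKM or more, and the 2 highest genes of each marker list. A gene that this rule names is not reported here. Alternatives were pseudocounts of 1 and 0.01, no filter or a 5 FPKM filter, 3 scalings (same total, median ratio, T cell markers), no trend, voom on recovered fragments, a replicate block, each sample left out and replicate 1 of both groups left out. Promoter windows and their starts came from RefSeq, GRCm38.p6. Transcripts for the search of shared 50-base stretches were those of GENCODE M21.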

Additional observations from a re-analysis of the deposited data

Results flagged for a closer look

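In 7 of 68 groups of 5 samples the lowest sample lay far from the rest, with a gap to its nearest neighbour, as a share of the group's whole range on the log2 scale, above Dixon's 95% critical value for 5 samples. Chance gives about 3.4 such groups. All 7 were replicate 1, in CD8+4T1+NaAc in 4 cases and in CD8+4T1 in 3 cases. In CD8+4T1+NaAc these were Cst7 (gap 0.793 of the range), Lamp1 (0.786), Serpinb1b (0.725) and Ctsd (0.714). In CD8+4T1 they were Gzmb (0.870), Ctsc (0.781) and Vamp4 (0.765). The markers Cd8b1 and Klre1 were not among the 68 groups. Their lowest sample with NaAc was also replicate 1 (125 against 166 to 187 FPKM, and 0.134 against 0.820 to 1.21 FPKM). The replicate 1 libraries also had the fewest genes above 0 in their group (20233 and 22291). The part of library quality in these low values was not tested.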

How the results depend on the processing

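The count of granule genes called was 4 to 6 under all alternatives and that of the other granule genes 19 to 37, against 6 and 26. Calls over all genes moved as well, from 4924 of 15702 to 6930 of 15626 with any sample left out. They were 6979 of 15645 without replicate 1 of both groups and 6305 of 15745 under the same-total scaling that gave 37. With any sample left out the count of granule genes called was 4 to 6 and that of the other granule genes 19 to 32. Srgn, Lamp1 and Serpinb6b kept their direction and call under all 21 alternatives. Directions turned for genes that were not called. With the same total, T cell marker scaling and voom, the log2 fold change was 0.165, 0.152 and 0.079 for Ctsw, 0.121, 0.108 and 0.035 for Unc13d, and 0.137 (limma adjusted p = 0.0474), 0.124 and 0.050 for Cd8a. With the same total and T cell marker scaling it was 0.078 and 0.065 for Thy1, 0.070 and 0.057 for Spint2, 0.067 and 0.055 for H2-Ab1 and 0.109 and 0.094 for Klre1, which was 0.042 with a pseudocount of 1. With any sample left out the range was -0.072 to 0.049 for Ctsw, -0.011 to 0.078 for Gzmb, -0.211 to 0.409 for Klre1 and -0.068 to 0.027 for the log2 difference in Cst7 to Ctsc. When replicate 1 of both groups was left out, Gzmb was at -0.027, Klre1 at 0.274 and Cst7 to Ctsc at 0.065. The cause was not tested.

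Same-numbered samples did not deviate together (correlation -0.03 to 0.07, with 4 of 10 samples closest to their own number), so the numbers were not taken to pair the samples. With the replicate block 6 granule genes and 27 other granule genes were called, beside 5399 of all 15710 genes tested. Paired by number, the log2 differences were -1.13 for Serpinb6b to Gzma and 0.50 for Lamp1 to Cd8a (exact sign-flip permutation test, adjusted p = 0.125, where 5 pairs cannot pass 0.05). Without replicate 1 of both groups they were -1.13 and 0.59 (exact permutation test, p = 0.0286, the smallest for 4 against 4, adjusted p = 0.0571). Serpinb1a had the fewest fragments of the 10 genes, 10 to 34 per sample.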
